A study of Mus musculus with 56 samples.

Results

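Expression of 8 genes of basophils and mast cells was followed in blood progenitors of WT mice and of mice with mutant Tet2 and Flt3. The genes were Prss34, Mcpt8, Cpa3 and Gzmb, which encode proteases stored in granules, Fcer1a and Ms4a2, which encode chains of the IgE receptor, Hdc, which encodes the enzyme that makes histamine, and Il1rl1, which encodes the IL-33 receptor ST2. They were taken by symbol, through the Entrez IDs of the expression table, and are 8 of its 24424 genes. All cells came from C57BL/6 bone marrow. The mutant animals were Tet2-/-Flt3ITD and are called T2F3: they have no functional Tet2, which oxidizes methylated cytosines, together with a duplicated segment (ITD) in Flt3, the gene of a growth factor receptor of early blood cells. Multipotent progenitors (MPP) had been sorted as lin- Sca+ cells with cKit and CD48 and without CD150, and granulocyte-macrophage progenitors (GMP) as lin- Sca- cells with cKit, CD34 and CD16/32. WT gave 4 libraries of MPP and 5 of GMP, and T2F3 gave 3 of each. The WT MPP libraries carry the numbers 1, 3, 4 and 5. The labels give no ages, do not describe the animals' treatment or how the alleles were made, and name no separate animal for each library. The p-values therefore measure the spread between these libraries.

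Basophils and mast cells are rare granulocytic cells that arm themselves with IgE bound to a surface receptor and release histamine, proteases and cytokines when the IgE meets its antigen. Both descend from myeloid progenitors of the bone marrow, and both depend on the transcription factor GATA2. Prss34 and Mcpt8 are known from basophils and immature mast cells, Cpa3 from both lineages, and Gzmb also from cytotoxic lymphocytes.

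Promoter sequence is shown for all members except Hdc and Il1rl1, with the letters read by GATA factors in capitals. The windows are the 250 bases before the RefSeq start of each gene, 5′ to 3′ on the gene's own strand, in the GRCm38.p6 build. They lie at chr17:25298144-25298393 (plus strand) for Prss34, chr1:173227230-173227479 (minus strand) for Fcer1a, chr19:11623720-11623969 (minus strand) for Ms4a2, chr3:20242182-20242431 (minus strand) for Cpa3, chr14:56085198-56085447 (minus strand) for Mcpt8 and chr14:56262335-56262584 (minus strand) for Gzmb. Capitals mark AGATAA or TGATAA on either strand (TTATCT or TTATCA when on the other strand).
Prss34: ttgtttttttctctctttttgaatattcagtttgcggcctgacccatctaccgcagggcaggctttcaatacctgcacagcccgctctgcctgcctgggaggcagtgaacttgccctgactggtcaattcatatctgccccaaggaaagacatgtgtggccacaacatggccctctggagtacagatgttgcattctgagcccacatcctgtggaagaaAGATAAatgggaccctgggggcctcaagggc
Fcer1a: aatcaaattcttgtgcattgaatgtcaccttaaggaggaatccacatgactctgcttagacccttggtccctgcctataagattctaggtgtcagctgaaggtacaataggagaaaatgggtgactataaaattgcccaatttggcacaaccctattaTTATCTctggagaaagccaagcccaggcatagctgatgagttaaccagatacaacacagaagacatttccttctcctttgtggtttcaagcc
Ms4a2: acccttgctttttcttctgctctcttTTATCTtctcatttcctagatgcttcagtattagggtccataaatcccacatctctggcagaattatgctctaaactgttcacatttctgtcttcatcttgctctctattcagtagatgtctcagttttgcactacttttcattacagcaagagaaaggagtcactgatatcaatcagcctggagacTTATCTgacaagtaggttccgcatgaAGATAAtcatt
Cpa3: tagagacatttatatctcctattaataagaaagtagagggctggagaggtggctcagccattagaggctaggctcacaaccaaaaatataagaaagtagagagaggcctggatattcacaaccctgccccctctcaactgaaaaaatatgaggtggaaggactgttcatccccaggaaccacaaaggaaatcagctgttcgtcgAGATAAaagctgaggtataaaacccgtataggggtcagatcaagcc
Mcpt8: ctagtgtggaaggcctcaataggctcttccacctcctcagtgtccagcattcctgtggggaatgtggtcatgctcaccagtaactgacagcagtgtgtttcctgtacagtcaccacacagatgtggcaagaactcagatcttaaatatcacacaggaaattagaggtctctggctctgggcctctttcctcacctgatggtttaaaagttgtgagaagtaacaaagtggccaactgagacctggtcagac
Gzmb: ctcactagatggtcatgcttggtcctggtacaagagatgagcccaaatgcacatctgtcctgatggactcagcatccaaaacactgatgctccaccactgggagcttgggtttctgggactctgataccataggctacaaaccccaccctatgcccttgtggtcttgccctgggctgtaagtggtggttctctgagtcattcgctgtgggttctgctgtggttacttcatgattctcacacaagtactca

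These GATA letters stood in 5 of the 8 members (6 of their 9 windows), namely Prss34, Fcer1a, Ms4a2, Cpa3 and Il1rl1. They stood in 16.6% of the 32851 windows of this length in the RefSeq table. Ms4a2 held 3 matches, the nearest beginning 11 bases before the start. In Prss34, Cpa3 and Fcer1a the single match began 31, 46 and 92 bases before it. The windows of Mcpt8, Gzmb and Hdc did not hold these letters. Of the members not shown, Hdc was lower in T2F3 in both populations without these letters. Il1rl1 holds them and was lower in T2F3 MPP. It did not pass between genotypes in GMP, where every T2F3 library lay below every WT library. Any link between the letters and the differences was not tested. Letters of an E-box (CANNTG) were in 7 members, or 8 of their 9 windows, and in 66.2% of all windows. Those of PU.1 (GAGGAA) were in 2 members (2 windows) and 23.3% of all windows, and those of C/EBP (TTGCNNAA) in 2 members (2 windows) and 9.56%. The STAT letters TTCNNNGAA were in 0 members and in 7.02% of windows. A match describes the letters only, and a window without a match says nothing about the factor.

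Expression was read as the authors' regularized log2 values, on which 1 unit is a doubling. No counts are held in the table, so the read depth is unknown, and the regularization draws genes with few reads together, so their differences are understated. Differences are given with the standard error (SE) of a limma model over all 15 libraries, and pass when the p-value adjusted over all 12133 tested genes is under 0.05. Tested genes averaged 4 or more over all libraries. All 8 members were tested, but Gzmb, with a mean of 4.47, lay below 4 in 6 libraries and reached the minimum through its WT libraries. Of the genes of the sort, Fcgr3, which encodes CD16, was higher in GMP than in MPP (2.11 in WT), and Ly6a, which encodes Sca-1, was lower (-0.58). Cd34 was lower in GMP too (-1.11), although the GMP gate asks for its product. Between genotypes Cd48 (1.53) and Ly6a (0.63) were higher and Kit (-0.92) was lower in T2F3 MPP, and Cd48 (0.69) and Ly6a (0.49) were higher in T2F3 GMP. Their part in the members' differences was not tested. Tet2 did not pass between genotypes in MPP (-0.04, adjusted p = 0.783) or GMP (0.06, adjusted p = 0.762), and a value for the whole gene does not check the allele. Flt3, the other mutant gene, did not pass in MPP (-0.06, adjusted p = 0.685) and was higher in T2F3 GMP (1.28, adjusted p = 8.23e-07). A pair of GMP libraries stood apart in ribosomal protein genes. The median of 71 such genes was 1.10 over the rest of the group in WT GMP 1 and 0.86 in T2F3 GMP 2 (log2), while T2F3 GMP 3 lay at -0.64. The members deviated by -0.08, 0.35 and -0.71 in those 3 libraries (median), and results that rest on the first pair are given without it as well.

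**Figure D1:**
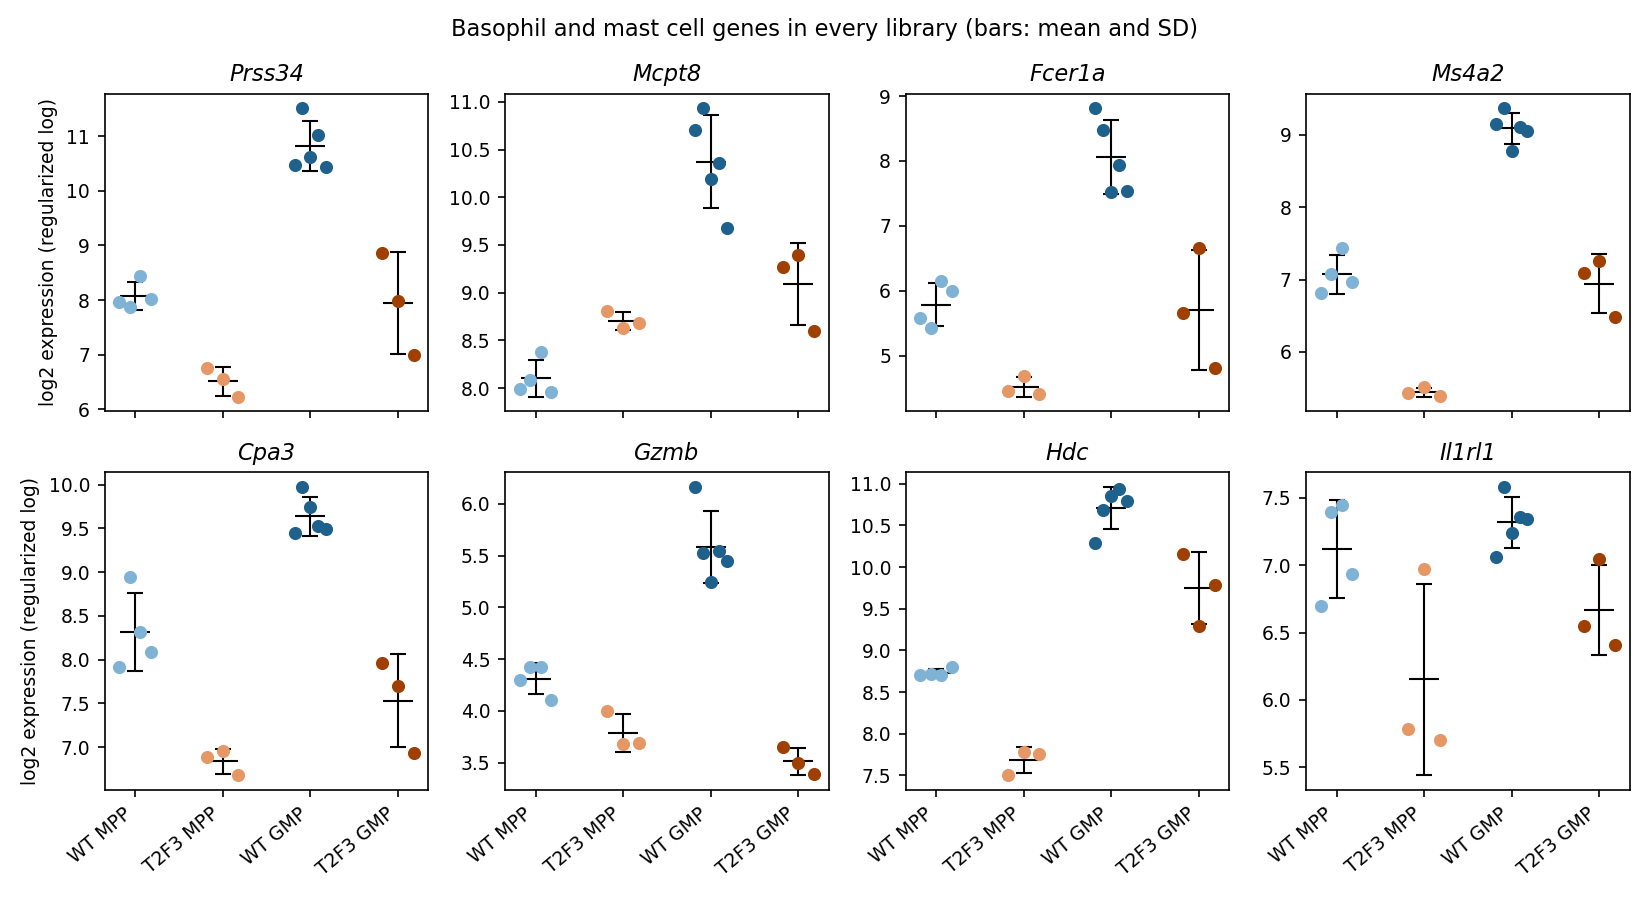
Regularized log2 expression of the 8 genes (vertical axis, own scale for each gene) in each of the 15 libraries (points) of 4 groups (horizontal axis), with the group mean and SD as bars. WT GMP had the highest mean in all 8 genes, between 10.43 and 11.52 for Prss34, while the place of T2F3 MPP and T2F3 GMP differed between genes.

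In WT cells the basophil and mast cell genes were higher in GMP than in MPP. Of the 8 members, 7 rose from MPP to GMP and 0 fell, where 25.4% of all tested genes rose and 23.2% fell. Their median difference was 2.00 on the log2 scale, and 0.03 over all tested genes. The same 7 had every WT GMP library above every WT MPP library, which held for 22.6% of tested genes (20.4% lay apart and lower). Il1rl1 was the exception. Median centring of the libraries changed the share of calls that were higher in WT GMP from 52.2% to 42.2%, and the count of 7 members stayed.

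Among the 8 members Prss34, a serine protease also called mast cell protease 11, had the largest WT step. It read 7.96, 7.88, 8.44 and 8.01 in WT MPP and 10.48, 11.52, 10.62, 11.02 and 10.43 in WT GMP. It differed by 2.74 ± 0.29 (SE, adjusted p = 1.06e-06). Mcpt8, a protease used as a basophil marker, differed by 2.27 ± 0.21 (SE). Cpa3, the carboxypeptidase of mast cell granules, differed by 1.32 ± 0.20, and Gzmb, the serine protease granzyme B, by 1.27 ± 0.16. No WT GMP library reached down to a WT MPP library in any of these genes. Both IgE receptor chains rose as well, Fcer1a by 2.27 ± 0.32 and Ms4a2 by 2.02 ± 0.16, and Hdc rose by 1.98 ± 0.15. Il1rl1 read 6.70, 7.40, 7.45 and 6.93 in WT MPP and 7.06, 7.58, 7.24, 7.36 and 7.35 in WT GMP. Its groups overlapped, and the difference of 0.20 ± 0.23 did not pass (limma adjusted p = 0.503).

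The genotype comparison asked what the T2F3 alleles change in each population, and most members were lower in T2F3 in both. In GMP 7 of 8 fell and 0 rose, where 6.04% of all tested genes fell and 9.25% rose. Their median difference was -2.09, against -0.02 over all tested genes. All 8 members had every T2F3 GMP library below every WT GMP library, which held for 7.49% of tested genes (9.52% lay apart and higher). In MPP 7 of 8 fell and 0 rose (1, Mcpt8, was higher at an unadjusted p under 0.05), where 19.6% of tested genes fell and 20.7% rose, 40.3% in all. The members' median was -1.16 against -0.02. Of the 8, 6 had all T2F3 MPP libraries below all WT MPP libraries (26.0% of tested genes) and 1, Mcpt8, had them above (28.1%). With median centring 40.2% of the calls in MPP were higher instead of 51.3%, and the count of members stayed at 7. It was 6 with quantile normalization or a pseudocount of 8, under which Gzmb missed the threshold. The 7 that fell include Gzmb in both populations, and Gzmb reached the minimum mean of 4 through its WT libraries. That filter favours a low T2F3 value for it, and the members were chosen with earlier results of these data known. Both comparisons stand on bulk RNA, in which fewer cells of a type and less RNA per cell cannot be told apart.

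**Figure D2:**
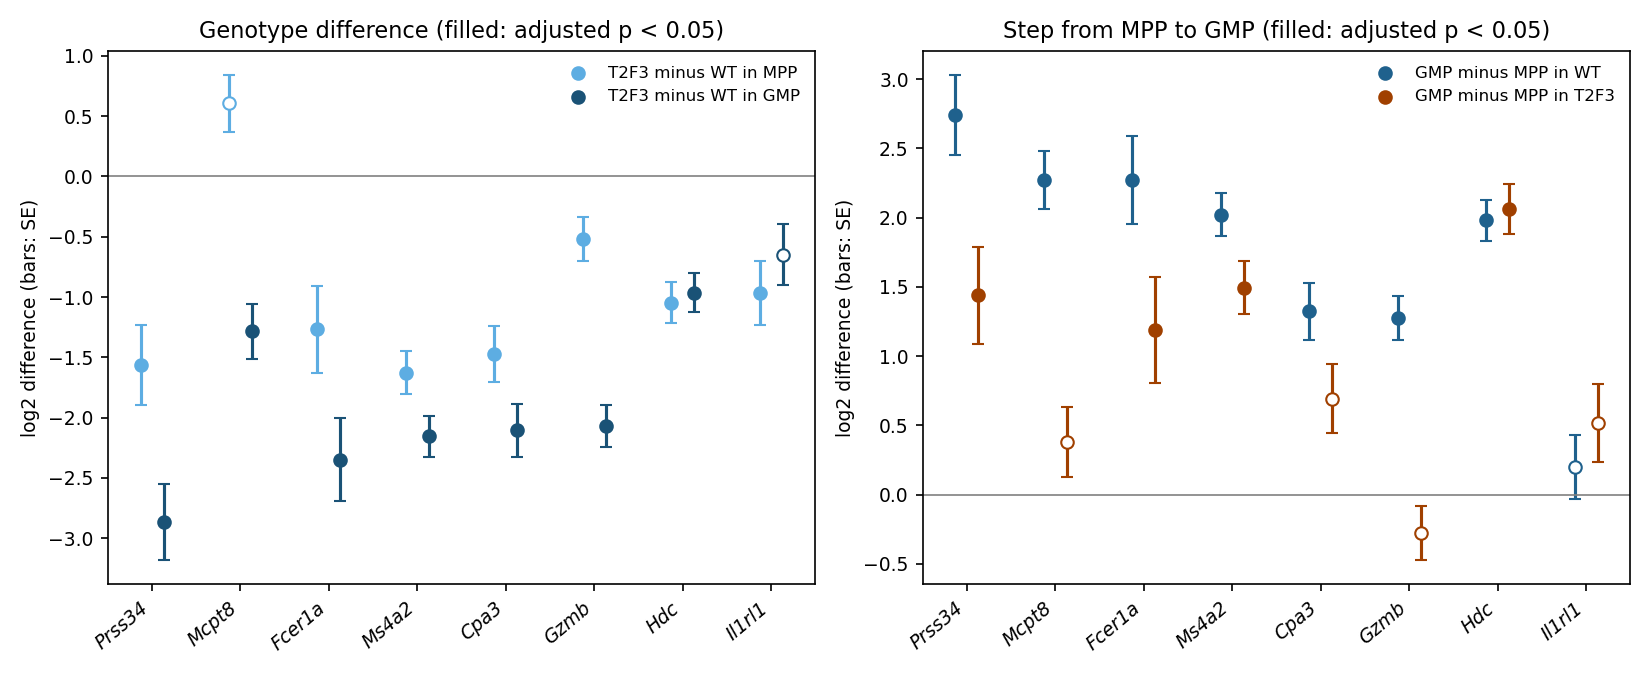
Log2 differences (vertical axes, bars are SE) for the 8 genes: T2F3 minus WT in MPP and GMP on the left, GMP minus MPP in WT and T2F3 on the right, with filled points for an adjusted p under 0.05. Prss34 fell by 2.86 in GMP, Mcpt8 lay above 0 in MPP, and Hdc had almost the same step from MPP to GMP in both genotypes.

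Prss34 fell furthest in GMP, and its difference there was the lowest of all 12133 tested genes. It read 8.87, 7.99 and 6.99 in T2F3 GMP, all below the WT GMP values of 10.43 to 11.52, with a difference of -2.86 ± 0.32 (SE, limma adjusted p = 6.6e-06), or 7.28-fold lower. In MPP it read 6.75, 6.55 and 6.23 in T2F3 and 7.88 to 8.44 in WT, a difference of -1.56 ± 0.33 (adjusted p = 0.00201). The 3 T2F3 GMP libraries spread wider than the 5 WT GMP libraries (SD 0.94 against 0.46), with library 3 lowest.

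Both the beta and the alpha chain of the IgE receptor fell in both populations. Ms4a2, the beta chain that amplifies the signal, read 7.09, 7.25 and 6.48 in T2F3 GMP and 9.15, 9.37, 8.78, 9.11 and 9.06 in WT GMP. The difference was -2.15 ± 0.17 (SE, limma adjusted p = 2.36e-07), or 4.45-fold lower. In MPP it read 5.43, 5.51 and 5.39 in T2F3 and 6.81, 7.07, 7.44 and 6.97 in WT, a difference of -1.63 ± 0.18 (adjusted p = 4.12e-06). The genotypes did not overlap in either population, and this member had the smallest spread within T2F3 MPP. Fcer1a, the alpha chain that binds IgE, read 5.66, 6.66 and 4.81 in T2F3 GMP and 8.82, 8.47, 7.52, 7.94 and 7.53 in WT GMP. It differed by -2.35 ± 0.34 in GMP (adjusted p = 1.45e-04). T2F3 GMP 2 was the highest and T2F3 GMP 3 the lowest of its group, and both lay under every WT GMP library. In MPP the Fcer1a values were 4.45, 4.69 and 4.42 in T2F3 and 5.58, 5.43, 6.15 and 6.00 in WT, with a difference of -1.27 ± 0.36 (adjusted p = 0.0126).

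Cpa3 read 7.97, 7.69 and 6.94 in T2F3 GMP and 9.45, 9.98, 9.74, 9.53 and 9.49 in WT GMP, and differed by -2.11 ± 0.22 (SE, limma adjusted p = 4.52e-06), 4.31-fold lower. In MPP it read 6.89, 6.95 and 6.68 in T2F3 and 7.92, 8.94, 8.32 and 8.08 in WT, and differed by -1.48 ± 0.23 (adjusted p = 1.86e-04). In both populations every T2F3 library lay below every WT library, with WT MPP 3 highest of the MPP.

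Mcpt8 in T2F3 lay on opposite sides of WT in the 2 populations. In T2F3 GMP it read 9.27, 9.40 and 8.60, below the WT GMP values of 10.71, 10.94, 10.19, 10.36 and 9.68, and it differed by -1.28 ± 0.23 (SE, limma adjusted p = 8.38e-04). In T2F3 MPP it read 8.81, 8.63 and 8.68, above the WT MPP values of 7.99, 8.08, 8.37 and 7.96. That difference of 0.61 ± 0.24 missed the threshold in the model over all libraries (adjusted p = 0.0508). It passed with array weights (adjusted p = 0.0208), when the 2 MPP groups were fitted alone (adjusted p = 4.82e-04) and, among the fits that left out a single library, without WT MPP 4, WT GMP 1, WT GMP 2, WT GMP 5, T2F3 GMP 2 or T2F3 GMP 3 (adjusted p from 0.0223 to 0.0455).

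Gzmb, which lay near the low end of the tested range, read 3.65, 3.50 and 3.39 in T2F3 GMP and 6.17, 5.53, 5.24, 5.54 and 5.44 in WT GMP. The difference was -2.07 ± 0.17 (SE, limma adjusted p = 4.37e-07). In MPP it read 3.9998, 3.68 and 3.69 in T2F3 and 4.30, 4.42, 4.42 and 4.10 in WT, a difference of -0.52 ± 0.18 (adjusted p = 0.0326). The genotypes did not overlap in either population. The MPP call was lost with quantile normalization (adjusted p = 0.0527), with a pseudocount of 8 (adjusted p = 0.0639), and without WT MPP 1, WT MPP 3, WT MPP 4, T2F3 MPP 2 or T2F3 MPP 3, with an adjusted p between 0.0573 and 0.11 for these libraries.

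Hdc, the histidine decarboxylase, read 10.16, 9.30 and 9.79 in T2F3 GMP and 10.28, 10.68, 10.85, 10.94 and 10.80 in WT GMP, a difference of -0.96 ± 0.16 (SE, limma adjusted p = 5.42e-04). In MPP it read 7.50, 7.79 and 7.76 in T2F3 and 8.70, 8.72, 8.70 and 8.80 in WT, a difference of -1.05 ± 0.17 (adjusted p = 2.25e-04). T2F3 GMP 1 lay just under the lowest WT GMP library, and the 4 WT MPP libraries were nearly equal, all above T2F3 MPP. Il1rl1 read 6.55, 7.05 and 6.41 in T2F3 GMP against 7.06 to 7.58 in WT GMP, and the difference of -0.65 ± 0.25 missed the threshold (adjusted p = 0.0932). It passed without T2F3 MPP 2 (adjusted p = 0.0248), which left the GMP values as they were, with the replicate block (adjusted p = 0.0351) and with the 2 GMP groups fitted alone (adjusted p = 0.0304). In MPP Il1rl1 read 5.78, 6.97 and 5.70 in T2F3 and 6.70 to 7.45 in WT. The difference of -0.97 ± 0.26 passed (adjusted p = 0.0101) although T2F3 MPP 2 lay inside the WT range, and the call was lost without T2F3 MPP 3 (-0.74, adjusted p = 0.0672).

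The difference between the genotype effects, GMP minus MPP, passed for 2 of 8 members, Mcpt8 and Gzmb, both negative, where 2.26% of tested genes passed, 0.882% negative and 1.38% positive. It was -1.89 ± 0.33 for Mcpt8 (SE, limma adjusted p = 0.00692) and -1.55 ± 0.25 for Gzmb (adjusted p = 0.00476). Gzmb reached the minimum mean of 4 through its WT libraries, and its T2F3 means were 3.79 in MPP and 3.51 in GMP. Values this low limit how far it could fall in MPP, and so limit the reading of its difference of effects. Mcpt8 and Gzmb lie in the same stretch of chromosome 14, as the coordinates of their windows show. Ctsg, the only tested gene between them in the annotation's order, did not pass (-0.68 ± 0.25, adjusted p = 0.157). Prss34 stood at -1.30 ± 0.46 (adjusted p = 0.14) and passed only without T2F3 GMP 1 among the fits that left out a single library (-1.76, adjusted p = 0.0296). Fcer1a stood at -1.08 ± 0.50 (adjusted p = 0.251), and at -1.37 with an adjusted p of 0.0384 without WT GMP 1 and T2F3 GMP 2. Ms4a2 (-0.53 ± 0.25), Cpa3 (-0.63 ± 0.32), Hdc (0.08 ± 0.23) and Il1rl1 (0.32 ± 0.37) did not pass. Over all genes 61.0% of these calls were positive, and 74.5% with median centring.

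Seen from the other side, the step from MPP to GMP passed for 4 of 8 members in T2F3, all of them higher, where 10.5% of tested genes were higher and 11.7% lower. Hdc rose by 2.06 ± 0.18 (SE), close to its WT step, Ms4a2 by 1.50 ± 0.19, Prss34 by 1.44 ± 0.35 and Fcer1a by 1.19 ± 0.39 (limma adjusted p = 0.0348). Cpa3 stood at 0.69 ± 0.25 (adjusted p = 0.0576), Mcpt8 at 0.38 ± 0.25, Gzmb at -0.28 ± 0.19 and Il1rl1 at 0.52 ± 0.28, and none of them passed. Without WT GMP 1 and T2F3 GMP 2 only Ms4a2 and Hdc passed, with Prss34 at an adjusted p of 0.0553 and Fcer1a at 0.0862. Fcer1a also missed the threshold without T2F3 MPP 1, T2F3 MPP 2, T2F3 MPP 3, T2F3 GMP 1 or T2F3 GMP 2, and with no filter (adjusted p = 0.059), a pseudocount of 8 (0.0543) or the T2F3 groups fitted alone (0.0625). Cpa3 passed with quantile normalization (adjusted p = 0.0277), array weights (0.0107) or genotype and number as a block (8.54e-05), and without WT MPP 3 or T2F3 GMP 3, and Il1rl1 with that block (adjusted p = 0.0205) and without T2F3 MPP 2. Mcpt8 passed with that block alone (adjusted p = 0.0278).

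Ordered by group mean, Prss34, Fcer1a, Ms4a2 and Cpa3 ran from WT GMP through WT MPP and T2F3 GMP to T2F3 MPP. In each of them WT MPP and T2F3 GMP overlapped, with the T2F3 GMP mean the lower, and WT MPP was not tested against T2F3 GMP. For Cpa3 only T2F3 GMP 1 (7.97) reached the WT MPP range, which began at 7.92, and the T2F3 groups overlapped too. Hdc ran from WT GMP to T2F3 GMP, WT MPP and T2F3 MPP, with all neighbours apart. Gzmb also had all neighbours apart, but ended with T2F3 MPP and then T2F3 GMP. Those groups lay under the minimum of 4 and were narrowly apart, at 3.68 for the lowest T2F3 MPP and 3.65 for the highest T2F3 GMP library. Mcpt8 had WT MPP at the bottom and an overlap of the T2F3 groups, and in Il1rl1 every pair of neighbours overlapped.

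Within groups the members varied together only in part. After the group mean was taken from each library, 22 of the 28 pairs of members had a Pearson correlation above 0 over the 15 libraries and 10 had one above 0.5, with a median of 0.35. These correlations are a description of libraries that share depth and quality. Mcpt8 and Fcer1a gave the highest (0.79) and Fcer1a and Hdc the lowest (-0.61). Hdc went against Ms4a2 (-0.25), Mcpt8 (-0.38) and Gzmb (-0.49) as well. In T2F3 GMP 3 Prss34, Fcer1a, Cpa3, Mcpt8 and Ms4a2 all lay below their group mean, while Hdc lay near it.

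**Figure D3:**
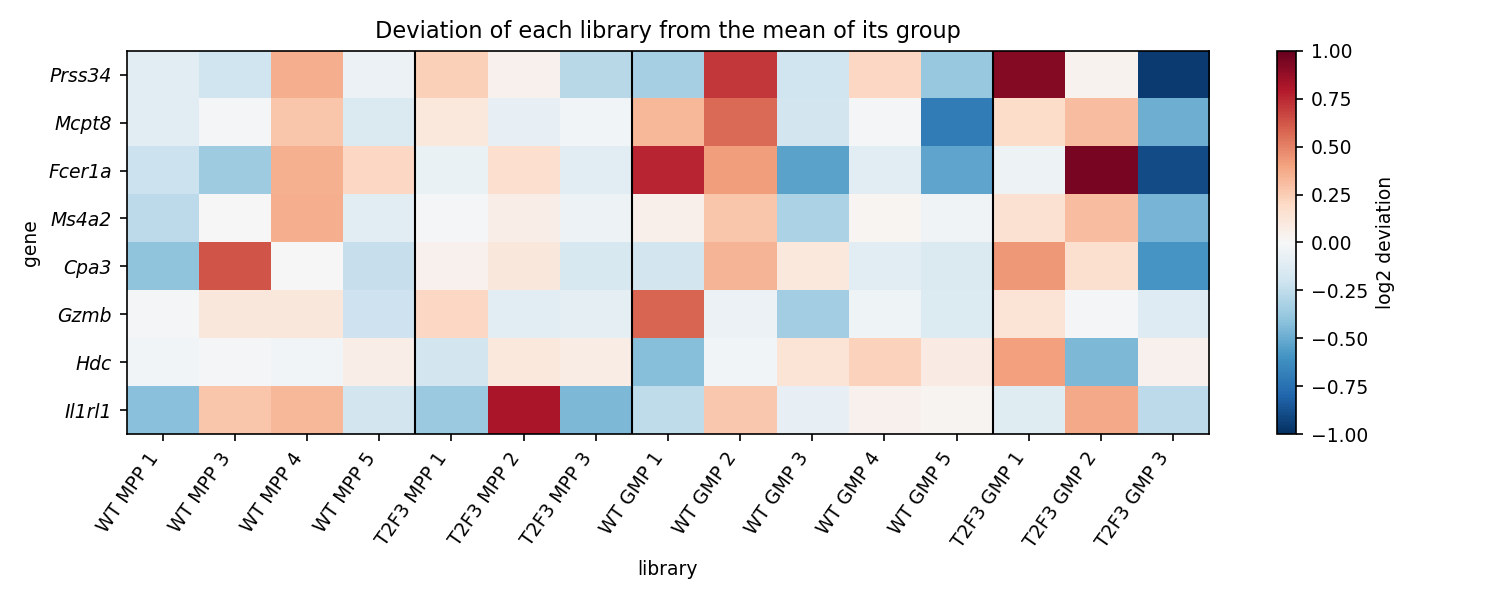
Deviation of each library (horizontal axis) from the mean of its own group, in log2 units by colour, for the 8 genes (vertical axis), with black lines between groups. Prss34 and Fcer1a deviated most in T2F3 GMP, Il1rl1 in T2F3 MPP 2, and Hdc often had the other sign.

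Genes outside the 8 were ranked by their correlation with the members' mean over the 15 libraries, a measure that the group differences dominate. The highest 8 were the histone H3 genes H3c8 (r = 0.96), H3c11, H3c10 and H3c3, together with Csrp3, Abca8b, Map11 and the eosinophil peroxidase gene Epx (r = 0.94). The histone copies are near-identical, so reads may have been shared among them. Among the members, Ms4a2 (0.99) and Prss34 (0.99) lay nearest to their mean and Mcpt8 (0.83) and Il1rl1 (0.73) farthest, and each member is part of that mean. With group means removed, the genes among the highest 8 included Polr2c (r = 0.83), Sec22b, Cxcr4, Ciao2b, Zfp11, Idh3b and Stx18. No gene was among the highest 8 on both measures.

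The other genes of the 2 lineages did not fall as a block. Of 16 further granule genes 6 were tested. In the GMP of T2F3, 1 fell and 0 rose, where 6.04% of all tested genes fell and 9.25% rose. In the MPP of T2F3, 2 fell and 2 rose, where 19.6% of all tested genes fell and 20.7% rose. The one that fell in both was Slc18a2, the vesicular transporter that loads histamine into granules, by 1.93 ± 0.19 (SE) in MPP and 1.18 ± 0.19 in GMP. Ctsg, cathepsin G, rose in MPP (0.49, limma adjusted p = 0.0403), a call that was lost without any of the MPP libraries other than WT MPP 4 or without WT GMP 2 (adjusted p from 0.0509 to 0.133), and read -0.19 in GMP (adjusted p = 0.495). Genes of mature mast cells lay under the minimum mean: Mcpt4 and Tpsab1 were listed at exactly 0 in all 15 libraries, as were 5135 genes of the table, Cma1 read between 1.29 and 2.23, and Tpsb2 did not exceed -1.01. Of 14 mediator genes 9 were tested, with 2 lower and 0 higher in GMP, and 3 lower and 1 higher in MPP. Csf1, the macrophage growth factor, fell by 0.85 ± 0.15 in MPP and 1.10 ± 0.14 in GMP, and Ptgs1, a prostaglandin synthase, by 0.99 ± 0.11 and 0.35 ± 0.10. The GMP call of Ptgs1 was lost without WT GMP 3, WT GMP 4 or any T2F3 GMP library (adjusted p from 0.0528 to 0.126).

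Signalling genes below the IgE receptor went in both directions. All 17 were tested, with 5 higher and 4 lower in T2F3 MPP and 3 higher and 2 lower in T2F3 GMP. Of all tested genes 20.7% were higher and 19.6% lower in MPP, and 9.25% and 6.04% in GMP. Fcer1g, the gamma chain that the IgE receptor shares with other Fc receptors, went against Fcer1a and Ms4a2. It rose by 1.07 ± 0.15 in MPP (SE, limma adjusted p = 4.61e-05) and 0.65 ± 0.14 in GMP (adjusted p = 0.00446), where T2F3 libraries read 10.45 to 10.67 and WT libraries 9.75 to 10.19. The adaptor gene Lat differed by 0.38 ± 0.16 in MPP (adjusted p = 0.0712) and fell by 0.93 ± 0.15 in GMP, while its relative Lat2 rose by 0.71 ± 0.20 and 0.82 ± 0.19. The Lat2 calls were lost without T2F3 MPP 2 (adjusted p = 0.0581) and T2F3 GMP 2 (adjusted p = 0.0591). Of 14 genes of cytokine and lipid receptors, with the cytokine gene Il33 among them, 11 were tested, with 4 higher and 1 lower in MPP and 1 higher and 0 lower in GMP. Il18r1, the IL-18 receptor, rose by 2.58 ± 0.20 and 1.10 ± 0.19. Kit, the stem cell factor receptor on which mast cells depend, fell by 0.92 ± 0.14 in MPP and read -0.23 ± 0.14 in GMP, and Il3ra, the IL-3 receptor chain, read -0.12 in both, neither of the last passing.

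Among transcription factors of the lineages, GATA1 and GATA2 had lower transcript levels in T2F3. All 16 were tested, with 7 lower and 3 higher in T2F3 MPP and 6 lower and 2 higher in T2F3 GMP. Of all tested genes 19.6% were lower and 20.7% higher in MPP, and 6.04% and 9.25% in GMP. Gata2 read 8.12 ± 0.42 (SD, n = 3) in T2F3 MPP and 9.86 ± 0.19 (SD, n = 4) in WT MPP, and 7.39 ± 0.20 (SD, n = 3) in T2F3 GMP and 9.46 ± 0.24 (SD, n = 5) in WT GMP. It fell by 1.74 ± 0.18 (SE) and 2.08 ± 0.17. Gata1 fell by 2.45 ± 0.17 and 1.63 ± 0.16, its cofactor Zfpm1 by 1.64 ± 0.20 and 1.10 ± 0.19, and Ikzf2 by 1.12 ± 0.10 and 0.84 ± 0.10. No T2F3 library of a population reached the WT range in Gata2 or Gata1. Irf8, a factor of monocytes and dendritic cells, rose by 1.58 ± 0.20 and 0.94 ± 0.19. Bhlhe40 had higher means as well, 8.12 in T2F3 MPP against 6.56 in WT MPP, and 7.59 in T2F3 GMP against 6.80 in WT GMP. Its genotypes did not overlap in either population. Nfil3 had means of 7.32 in T2F3 MPP and 6.15 in WT MPP. Mitf, a mast cell factor, and Cebpa, a granulocyte factor, did not pass in either population. Of 17 surface genes 12 were tested, with 6 higher and 1 lower in MPP and 3 higher and 1 lower in GMP. Itga2b, the integrin chain CD41, fell by 1.64 ± 0.19 and 1.52 ± 0.18, and Itgb7, an integrin chain of mast cell progenitors, rose by 1.28 ± 0.20 and 1.52 ± 0.19.

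Markers of other cell types moved beside the members, and their part in the members' differences was not tested. Of all tested genes 20.7% were higher and 19.6% lower in T2F3 MPP, and 9.25% and 6.04% in T2F3 GMP. Of 11 dendritic cell markers, all tested, 9 rose in T2F3 MPP and 10 in T2F3 GMP, and 0 fell. The 10 include Flt3, itself a mutant gene, which rose in GMP and did not pass in MPP. Their summed level (log2 of the sum) ran from 12.84 to 13.55 in WT MPP and 15.14 to 15.98 in T2F3 MPP, and from 11.80 to 12.08 in WT GMP and 14.69 to 14.90 in T2F3 GMP. Of 13 erythroid and megakaryocyte markers 11 were tested, with 7 lower and 1 higher in MPP and 7 lower and 0 higher in GMP. Their sums ran from 10.82 to 11.08 against 9.56 to 10.18 in MPP (WT against T2F3) and from 9.71 to 10.44 against 9.39 to 9.61 in GMP. Of 10 eosinophil markers 7 were tested. Epx, Prg3 and Ear6 fell in GMP (-1.92, -1.07 and -1.16) and 0 rose, but the call of Ear6 was lost without WT GMP 4, WT GMP 5, T2F3 GMP 1 or T2F3 GMP 3 (adjusted p from 0.0661 to 0.131). In MPP 2 were lower and 2 higher, and Epx fell by 1.03. The sums of the eosinophil markers overlapped between genotypes, at 12.68 to 13.47 in WT GMP and 11.10 to 12.96 in T2F3 GMP. Prg2, another of these markers, made up most of them, with means of 12.64 in WT GMP and 11.63 in T2F3 GMP. All 11 neutrophil markers were tested and 0 passed by limma in either population. At an unadjusted p under 0.05 there were 0 in MPP and 5 in GMP, 4 higher and 1 lower.

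About as many markers of the lymphocytes that also use Gzmb or Il1rl1 lay under the minimum as over it. Of 11 cytotoxic lymphocyte markers 5 were tested, with 1 higher and 0 lower in T2F3 GMP and 2 higher and 1 lower in MPP. The shares of all tested genes were 9.25% higher and 6.04% lower in GMP, and 20.7% and 19.6% in MPP. The NK receptor gene Klrd1 rose by 1.55 ± 0.45 (SE) in MPP and 1.70 ± 0.43 in GMP. Each call rested on T2F3 library 2 of its population, without which it read 1.06 in MPP (limma adjusted p = 0.0926) and 1.003 in GMP (limma adjusted p = 0.0834). Klrb1c, another NK receptor gene, fell in MPP (-0.77; adjusted p = 0.0553 without T2F3 MPP 2) and read -0.54 in GMP (adjusted p = 0.107), and Nkg7, a granule protein gene of cytotoxic cells, read 0.10 and -0.35, neither passing. Prf1, which encodes perforin, read at most 1.60, Eomes 1.94 and Ncr1 3.48 in any library. The summed level of the 11, almost all of it Nkg7, ran from 11.84 to 12.64 in WT GMP and from 11.55 to 12.09 in T2F3 GMP. Of 10 type 2 lymphoid markers 5 were tested, with 2 lower and 1 higher in MPP and 0 lower and 1 higher in GMP. Il7r fell by 1.91 ± 0.30 in MPP, Thy1 rose by 1.83 ± 0.16 and 1.53 ± 0.15, and Areg was listed at 0 in all libraries.

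**Figure D4:**
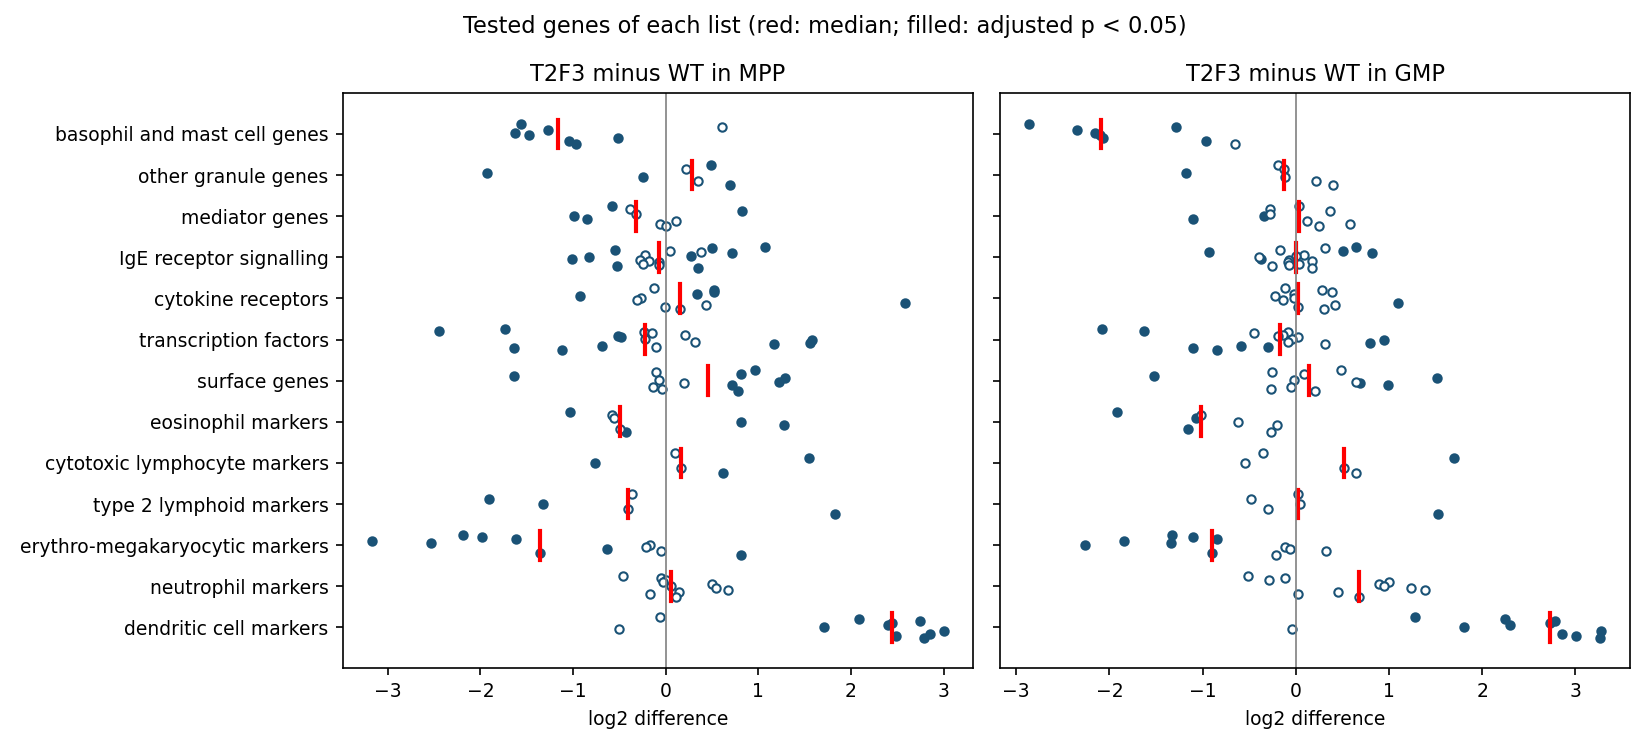
Log2 difference T2F3 minus WT (horizontal axes) of each tested gene (points, filled for an adjusted p under 0.05) in 13 lists (rows), for MPP on the left and GMP on the right, with the list median in red. The basophil and mast cell genes had medians of -1.16 and -2.09, and the dendritic cell markers lay on the other side at 2.44 and 2.72.

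Genes that neighbour the members on the chromosome were looked at for comparison. The neighbours were the 7 protein-coding genes on each side in the annotation's order, a set chosen after member values were seen. They were 105 distinct genes, of which 49 were tested. In T2F3 MPP 20 of them were higher and 3 lower, where 20.7% of all tested genes were higher and 19.6% lower. In T2F3 GMP 13 were higher and 0 lower, where the shares were 9.25% and 6.04%. Ms4a4c, Ms4a4b, Ms4a6c, Ms4a6b and Ms4a6d, all beside Ms4a2, were among the higher genes in both. Beside Ms4a2 (-1.63 in MPP and -2.15 in GMP), Ms4a6d, the next gene of the same family, rose by 1.49 ± 0.26 (SE) and 1.04 ± 0.25. Ms4a4c rose by 2.20 ± 0.35 and 1.93 ± 0.34. On the other side Ms4a3 did not pass (-0.03 and -0.21). Members of this family resemble each other in sequence, so reads may have been shared and their calls may not be separate. Il18r1 is the next gene to Il1rl1 and rose as given above, and Cp, the ceruloplasmin gene 4 genes from Cpa3, rose by 2.52 ± 0.18 and 2.93 ± 0.17. Ctsg, next to Mcpt8, rose in MPP and did not pass in GMP, as given above.

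**Figure D5:**
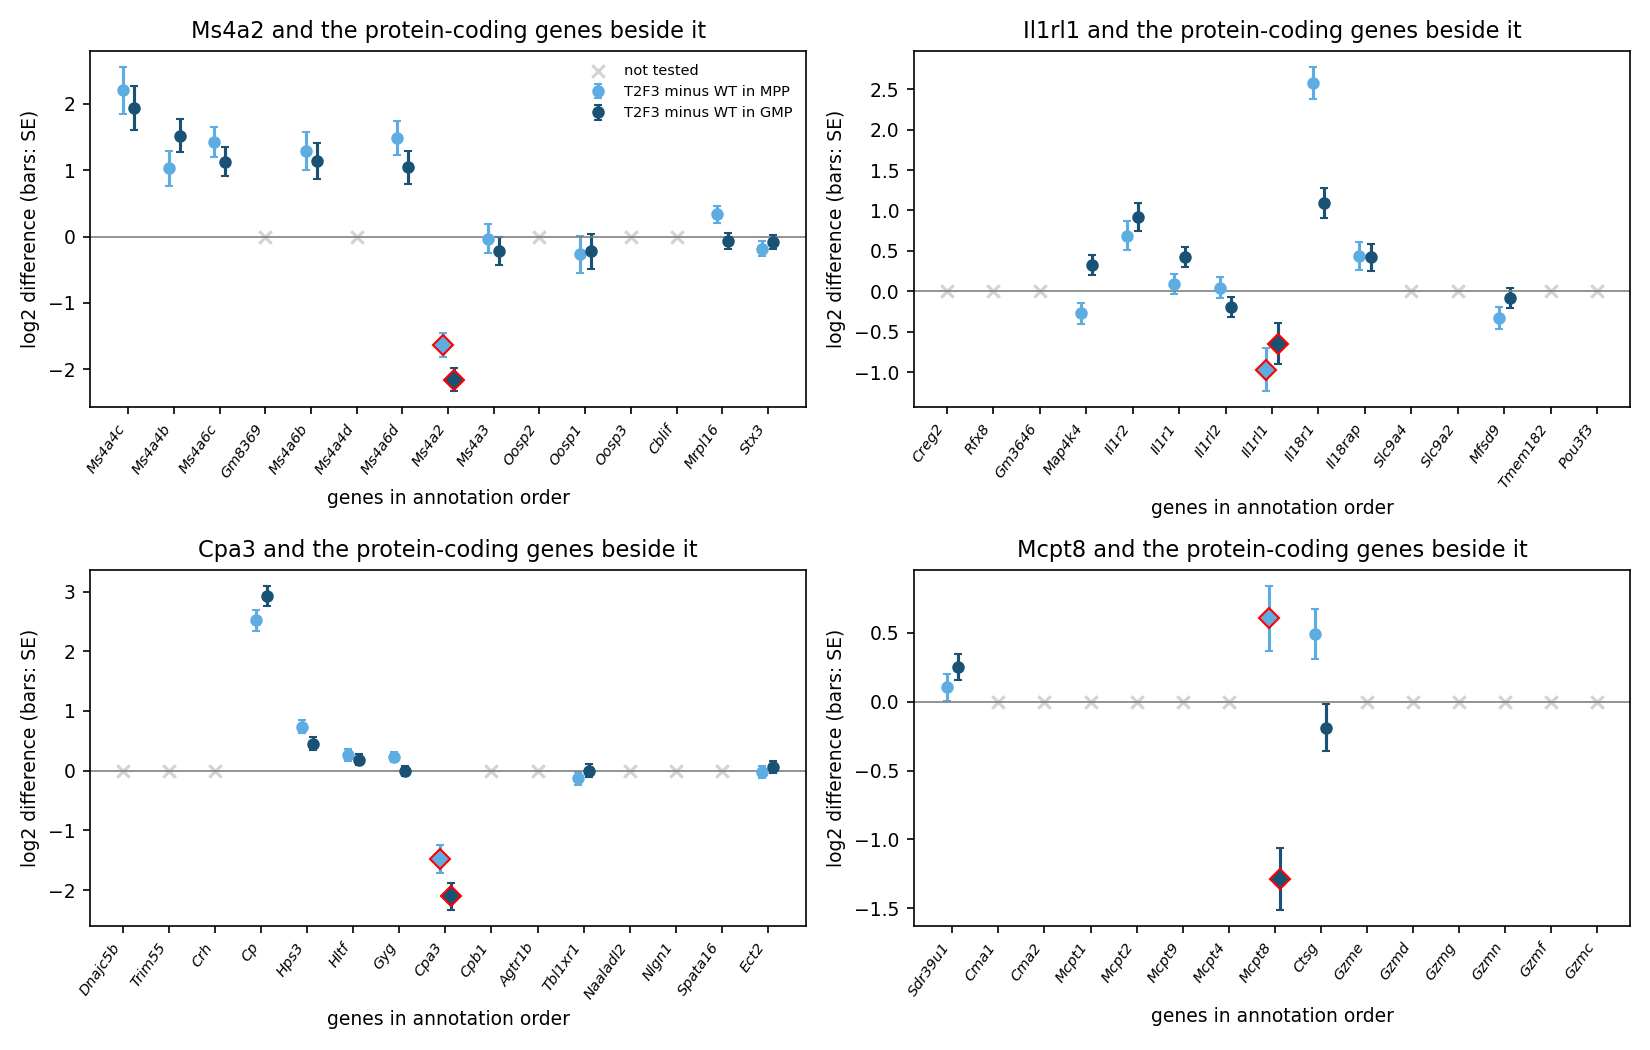
Log2 differences T2F3 minus WT (vertical axes, bars are SE) of Ms4a2, Il1rl1, Cpa3 and Mcpt8 (red-edged diamonds) and of the 7 protein-coding genes on each side in annotation order (horizontal axes), with grey crosses for genes not tested. Ms4a2 lay at -1.63 and -2.15 beside 5 genes of its family that were higher, all on one side of it, and Il18r1 at 2.58 and 1.10 beside Il1rl1.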

How the data were processed

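Per the labels' protocols, a stranded mRNA kit was used for the RNA-seq libraries. Expression is in 1 table that the authors deposited, of log2 values whose file name marks them as regularized log values. HOMER, STAR, DESeq2, Bowtie and the mm9 build are named in the submitters' processing notes, without versions or roles. Of 24424 Entrez IDs, 24345 matched a symbol in the gene table of the GRCm38.p6 assembly. Of 56 samples, 41 libraries of genomic DNA were not analysed here.

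The 12133 genes that averaged 4 or more over the 15 libraries were fitted with limma 3.58.1 in R 4.3.3 (a mean per group, eBayes with trend and robust), which was also tested on simulated data. The two-sided p-values were adjusted over all tested genes after Benjamini and Hochberg (threshold 0.05). Folds are 2 to the power of the log2 difference. The members and gene lists were chosen with earlier results of these data known. Named genes were the 8 members, up to 4 genes per list with the smallest p in GMP, Fcer1g, Gata2, Gata1, Mitf, Cebpa, Irf8, Kit and Il3ra, and the 8 genes most like the members, of which 1 is not reported here. Sort genes, neighbours, genes under the minimum and other list genes were named after their values were seen. Those list genes were Areg, Bhlhe40, Cma1, Ear1, Ear2, Eomes, Mcpt4, Ncr1, Nfil3, Prf1, Tpsab1 and Tpsb2. Motifs were searched in the RefSeq promoter table. Alternatives were other filters, scalings and weights, a pseudocount of 8, no trend or robust step, only the compared groups, a minimum log2 difference of 0.5 in the test, replicate blocks and each library left out. Python 3.11.15 with Matplotlib 3.10.9, NumPy 2.4.6 and pandas 2.3.3 served for joins and figures.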

Additional observations from a re-analysis of the deposited data

Results flagged for a closer look

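The genotype difference of some genes was not the same in the 2 populations, by the test of the difference itself (T2F3 minus WT in GMP, less the same in MPP, limma, n = 15 libraries). Among the members these were Mcpt8 (-1.89, adjusted p = 0.00692) and Gzmb (-1.55, adjusted p = 0.00476). Every T2F3 library of Gzmb lay under the minimum mean of 4. Among the other named genes they were the adaptor gene Lat (-1.30), the IL-18 receptor gene Il18r1 (-1.48), the prostaglandin synthase gene Ptgs1 (0.64), the nuclear receptor gene Rora (1.37) and the membrane skeleton gene Ank1 (1.20).

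Single libraries lay far from the rest of their group in 10 of the 122 groups examined, where chance gives about 1 in 20. Only the WT groups were examined, since the T2F3 groups hold 3 libraries each. None of the 10 concerned a member. In WT GMP these were Slc18a2 in library 3 (8.58), Ndst2 in library 1 (8.87), Klrd1 in library 1 (5.04), and Zfpm1 (8.56) and Klf1 (6.44) in library 2. In WT MPP they were the paired receptor genes Csf2rb2 (9.30) and Csf2rb (10.9) in library 5, Mpo in library 3 (15.7), and the MHC class II genes H2-Aa (10.03) and Cd74 (11.01) in library 1.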

How the results depend on the processing

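No member changed the sign of a passing difference under any alternative run, and 7 members rose in the WT step in each fit except with a minimum mean of 6, where Gzmb was not tested and 6 did. With single libraries left out, 7 to 8 members passed between genotypes in GMP, 5 to 8 in MPP, 3 to 5 in the T2F3 step and 2 to 3 in the difference of the genotype effects. A test against a log2 difference of 0.5 left 5 members in GMP and 2 in MPP (7 each in the main analysis), 2 in the T2F3 step (4) and 0 in the difference of effects (2). That difference kept 1 member with a minimum mean of 6, since Gzmb was not tested. Without WT GMP 1 and T2F3 GMP 2 the T2F3 step kept 2. Whether the replicate numbers pair the libraries was checked over all tested genes. Same-numbered MPP and GMP libraries deviated together with correlations from 0.055 to 0.464, below 0.1 for WT 1 and T2F3 1, and not every library correlated best with its own number, so pairing by number was not shown and no block entered the main analysis. With the replicate block, 2732 genes passed in MPP instead of 4889. With genotype and number as a block, chosen after seeing the data, 7 members passed in the T2F3 step instead of 4.

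Counts over all genes moved more. The difference of effects passed in 274 genes, in 436 without a filter, 140 with a minimum mean of 6, 1494 with array weights, 16 in the test against 0.5, 1204 without WT GMP 1 and T2F3 GMP 2, and 79 (without T2F3 MPP 3) to 586 (without T2F3 MPP 1) with single libraries left out. In GMP 1855 genes passed, 1180 with its groups fitted alone, 4103 with array weights, 337 against 0.5, and from 1174 (without T2F3 GMP 2) to 3759 (without WT GMP 1). In MPP it was 7795 with array weights, 546 against 0.5, and from 2859 (without T2F3 MPP 2; 2892 without T2F3 MPP 3) to 5989. The T2F3 step had 2690, 4389 with array weights and 660 against 0.5, and the WT step 5899, and 1320 against 0.5. The cause was not tested.

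Differences that did not pass and changed sign were small. Ctsg in GMP became 0.018 with array weights. Fyn in MPP became -0.013 with median centring, -0.0014 with quantile normalization and -0.030 with the replicate block. Ltf in MPP became 0.36 with the block and 0.088 with array weights. Rora in GMP became -0.074 with quantile normalization, -0.0080 with the block and -0.11 with array weights. With single libraries left out, in MPP Ccl3 ran from -0.31 to 0.19, Cebpa from -0.25 to 0.0029, Fyn from -0.056 to 0.13, Ltf from -0.40 to 0.16 and Ngp from -0.30 to 0.24. In GMP Rora ran from -0.035 to 0.11, and the difference of effects of Hdc from -0.12 to 0.31. Depth is unknown, so low genes such as Gzmb may differ more than the values show.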
